A study of Mus musculus with 8 samples.

Results

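Glycolysis and the pentose phosphate pathway were followed through 31 enzyme genes, from hexokinase to lactate dehydrogenase, pyruvate dehydrogenase with its kinases, and transaldolase. The members are listed by symbol for their place in these pathways, and the listing rule uses no measured value, although the list was drawn up with earlier results of these data known. They are 31 of the 23846 entries of the expression table. Of the 31, 29 reached a mean FPKM of 1 over all libraries and were tested, and Eno1 and Eno2 did not. FPKM counts sequenced fragments per kilobase of a gene model, relative to all that mapped, so levels of different genes can be set side by side.

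The samples were mouse bone marrow cells isolated by sorting, 4 from wild-type mice and 4 labelled TOX knockout, each measured once by RNA sequencing. TOX is a nuclear DNA-binding protein of the HMG-box family, and the series title concerns its part in making the common progenitor of innate lymphoid cells (ILCs). The labels name neither the sorted population nor the knockout allele, strain, age or sex of the mice, and they describe no treatment. Nothing in them says that samples of a group were separate animals, so p-values here measure the spread between these samples, which may in part be technical. Libraries are called by the genotype and by the number in their column names, 10, 11, 16 or 29. Values are given in that order within each group. The column names also hold a code that the labels do not explain, C4 in all 4 wild-type columns, E3 in knockout columns 10, 16 and 29, and E2 in knockout column 11. What the code stands for and the genotype cannot be told apart here. The barcode numbers in the same names form 2 consecutive runs, the first of libraries 10 and 16 and the second of libraries 11 and 29, each with both genotypes, and these are called the barcode runs.

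Glycolysis splits glucose into pyruvate and yields ATP and NADH. Several of its steps are served by isoenzymes encoded by separate genes, which differ in kinetics and in the tissues that use them. The pentose phosphate pathway branches off at glucose-6-phosphate and makes NADPH and ribose, and it is known for feeding the oxidative burst of neutrophils. Red cells use a side branch through 2,3-bisphosphoglycerate, which lowers the oxygen affinity of haemoglobin. Lactate dehydrogenase turns pyruvate into lactate, and pyruvate dehydrogenase carries it into the mitochondrial citric acid cycle unless its kinases switch it off.

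The promoter windows of phosphoglycerate mutase and lactate dehydrogenase are printed because these are the families with a member that passed the test between genotypes. Each window runs from 250 bases before to 50 bases after the RefSeq gene start (assembly GRCm38.p6), 5′ to 3′ on the strand of the gene. Capitals mark every match to the motifs searched on both strands. The motifs were the core of the hypoxia response element (ACGTG or GCGTG), the MYC E-box (CACGTG, which contains the first of these cores), the E-protein E-box (CAGCTG or CAGGTG), the GATA motif (AGATAA or TGATAA) and the TATA box (TATAAA).
Pgam1, chr19:41911621-41911920, plus strand: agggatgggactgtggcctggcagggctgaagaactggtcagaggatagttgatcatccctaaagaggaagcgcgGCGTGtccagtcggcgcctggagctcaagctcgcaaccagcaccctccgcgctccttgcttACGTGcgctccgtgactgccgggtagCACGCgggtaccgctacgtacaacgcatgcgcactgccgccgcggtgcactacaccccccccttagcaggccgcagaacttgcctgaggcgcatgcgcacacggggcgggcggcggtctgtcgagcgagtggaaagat
Pgam2, chr11:5803747-5804046, minus strand: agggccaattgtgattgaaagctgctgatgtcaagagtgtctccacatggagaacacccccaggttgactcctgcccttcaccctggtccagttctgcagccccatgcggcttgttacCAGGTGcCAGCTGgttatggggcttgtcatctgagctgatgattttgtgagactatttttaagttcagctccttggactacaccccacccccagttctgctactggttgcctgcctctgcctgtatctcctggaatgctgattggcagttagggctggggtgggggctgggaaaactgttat
Ldha, chr7:46845554-46845853, plus strand: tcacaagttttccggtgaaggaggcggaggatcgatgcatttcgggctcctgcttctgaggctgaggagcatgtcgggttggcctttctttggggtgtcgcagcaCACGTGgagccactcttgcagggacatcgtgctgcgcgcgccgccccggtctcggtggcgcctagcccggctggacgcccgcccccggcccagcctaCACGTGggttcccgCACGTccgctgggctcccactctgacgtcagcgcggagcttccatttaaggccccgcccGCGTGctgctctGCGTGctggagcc
Ldhb, chr6:142507908-142508207, minus strand: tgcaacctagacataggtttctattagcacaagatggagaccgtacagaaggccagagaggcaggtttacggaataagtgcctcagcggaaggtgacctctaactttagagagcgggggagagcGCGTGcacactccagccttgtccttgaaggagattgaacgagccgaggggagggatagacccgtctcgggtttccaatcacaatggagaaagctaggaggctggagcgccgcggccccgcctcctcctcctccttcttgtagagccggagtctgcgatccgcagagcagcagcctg

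The mutase pair differed in base composition and in motifs. The Pgam2 window held 1 CpG dinucleotide, and 5.43% of the 32851 RefSeq windows of the same length held fewer. The Pgam1 window held 30 CpG dinucleotides, and 88.3% of windows held fewer. Pgam2 carried 2 E-protein E-boxes and no hypoxia core, whereas Pgam1 carried 3 hypoxia cores and no E-protein E-box. The Ldha window had 7 hypoxia cores and 2 MYC E-boxes, and the Ldhb window had 1 hypoxia core. All 31 members had a window, with a median of 20 CpG dinucleotides against 7 over all windows. Where a gene had more than 1 RefSeq window, 1 was used. A hypoxia core was present in 22 of the 31, against 43.8% of all windows, an E-protein E-box in 8, against 32.9%, and a MYC E-box in 3, against 7.15%. Both hypoxia cores and the MYC E-box contain a CpG, and no comparison at equal CpG content was made. A GATA motif was found in 4 members, against 18.6% of all windows, and a TATA box in 1, against 13.6%. A match gives the letters in the window only and is no evidence of binding.

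The labels were checked with Tox, which was at 92.4 to 123 FPKM in the wild-type libraries and at 0.107 to 2.34 in the knockout libraries. Between 10425 and 10481 genes reached an FPKM of 1 in each wild-type library, against 10115, 10600, 7328 and 9263 in knockout libraries 10, 11, 16 and 29. Knockout library 16 had the lowest value of all 8 libraries for 21 of the 29 tested members. The file holds no read counts, so the depth of the libraries is unknown. The 10 genes of an ILC progenitor marker list summed to 2190 to 3062 FPKM in wild type and to 109 to 443 in knockout, and all 10 passed the test as lower. Marker lists were chosen with earlier results of these data known, so this count describes the libraries and is no independent evidence. All 17 granulocyte markers found in the table had a higher mean in knockout, 0 of them passing the test, and their share of a library's FPKM was 1.97, 1.32, 2.71 and 0.0815% in wild type against 7.90, 3.85, 5.86 and 7.39% in knockout. The share of globin was 3.67, 3.42, 14.8 and 5.52% in wild type against 25.6, 6.17, 20.9 and 58.6% in knockout. Means were higher in knockout for all 13 erythroid, 8 of 10 monocyte and macrophage, 7 of 7 basophil and mast cell, 8 of 8 B lineage, 3 of 4 plasma cell, 5 of 7 T lineage and 2 of 6 NK cell markers, of which 1 NK cell marker passed, as lower. In no list was a marker at 0 in all wild-type libraries. The 10 cycling-cell markers summed to 179 to 328 FPKM in wild type and to 277 to 542 in knockout. All 10 had a higher mean in knockout, and 0 passed the test.

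Across the 29 tested members 2 passed the test as lower in knockout, Pgam2 and Ldhb, and 0 as higher. The test was limma on log2(FPKM + 1) with Benjamini-Hochberg adjustment over all 10693 tested genes and an adjusted p threshold of 0.05, and log2 fold changes are knockout minus wild type on that scale, where the added 1 shrinks the changes of weakly expressed genes. Of all tested genes 1.92% passed, 1.72% as lower and 0.196% as higher. At an unadjusted limma p under 0.05 there were 8 members. The share of all tested genes under that threshold is not given here, so this count does not set the members apart. The median log2 fold change of the members was -0.62, beside -0.52 for all tested genes. Both medians were closer to 0 without knockout library 16 (-0.38 and -0.26), in the second barcode run alone (-0.34 and -0.38) and without knockout libraries 16 and 29 (-0.066 and -0.030). As deposited 22 members had a negative value and 7 a positive one, where 78.5% of all genes were negative. In 6 members every knockout library was below every wild-type library (Aldoc, Pgam2, Ldha, Ldhb, Pdha1 and Pdk1), and in 0 was every knockout library above. Over all tested genes these shares were 11% and 1.09%.

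Because the all-gene median was below 0, values were also scaled between libraries by the median ratio to the geometric mean of genes above 1 FPKM in all 8 libraries. This scaling brought the median of all genes to -0.16 and that of the members to -0.24. It left 1 member lower, Pgam2, and 0 higher, where 1.98% of all genes passed, 1.33% as lower and 0.651% as higher. With it 20 members were negative and 9 positive, beside 59.7% negative over all genes. Among the members 6 did not overlap as lower and 2 as higher, Pgd and Tkt. The background of non-overlap was then 8.04% for lower and 4.09% for higher.

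**Figure D1:**
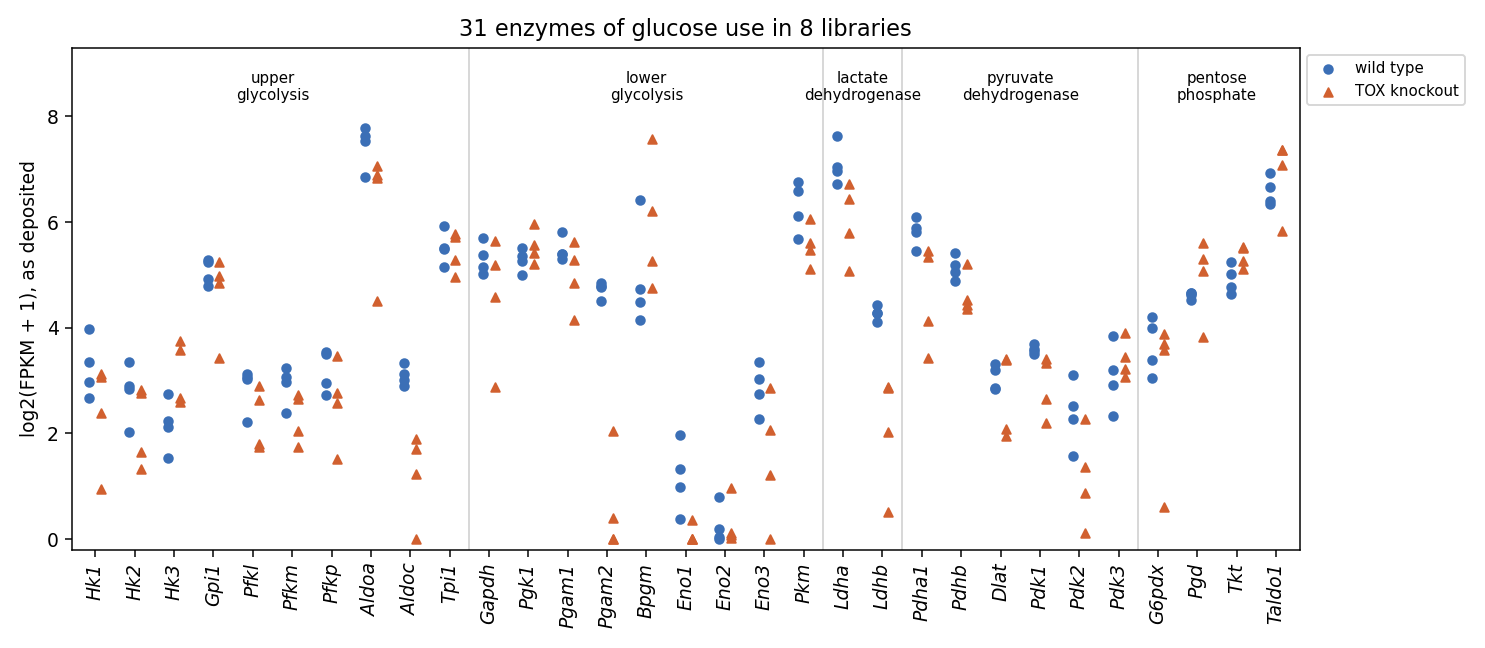
Each of the 31 enzymes in each library, as log2(FPKM + 1) on the vertical axis, ordered by role, with circles for the 4 wild-type and triangles for the 4 TOX knockout libraries. Pgam2, Ldhb and Aldoc stand apart in all 4 knockout libraries, and the single low triangle of many genes is knockout library 16.

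Phosphoglycerate mutase, which moves the phosphate of 3-phosphoglycerate to the second carbon, is made from Pgam1, the form of most tissues, and Pgam2, the form known from muscle. Pgam2 (mm10 chr11:5801637-5803796) was at 26.3, 26.7, 21.8 and 27.9 FPKM in the wild-type libraries. It was listed at 0, 0.316, 0 and 3.15 in the knockout libraries. Every knockout library was thus far under the lowest wild-type library, and library 29 held most of what remained. The means were 25.7 ± 2.70 and 0.866 ± 1.53 FPKM (SD, n = 4 each), a ratio of 29.7. On the log2 scale the change was -4.12 (SE 0.49), with a limma adjusted p of 7.91e-04, and after median-ratio scaling it was -3.80 (adjusted p = 0.00488). In bulk RNA, fewer cells of a type and less RNA per cell cannot be told apart. The ILC progenitor markers were lower in the same libraries, and their part in this result was not tested.

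Pgam2 passed the test with each single library left out, with log2 fold changes from -4.60 to -3.92, and without knockout libraries 16 and 29. It also passed in the second barcode run alone (limma adjusted p = 0.0292), but not in the first, with 2 libraries against 2 (log2 fold change -4.64, adjusted p = 0.180). Its gene overlaps no other entry of the table. The nearest neighbour, Dbnl (chr11:5788483-5800980), was at 38.0 to 51.9 FPKM in wild type and 6.02 to 38.8 in knockout and missed the threshold (log2 fold change -1.01, adjusted p = 0.261).

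Pgam1 gave another picture. It was at 55.5, 38.4, 41.2 and 41.2 FPKM in wild type and at 48.4, 38.0, 16.7 and 27.8 in knockout, so the groups overlapped. On the log2 scale the difference was -0.50 (SE 0.38; limma, adjusted p = 0.417), close to the all-gene median, and it was -0.06 after median-ratio scaling. The make-up of the family was therefore compared as a share within each library, which no scaling between libraries can move. Pgam2 made up 32.2, 41.01, 34.6 and 40.4% of the summed mutase FPKM in wild type. In knockout it made up 0, 0.824, 0 and 10.2%. The mean share went from 37.0 ± 4.36% to 2.75 ± 4.96%, and the exact two-sided permutation test of 4 against 4 gave its smallest possible p, 0.0286. Adjusted over the 15 isoenzyme shares tested in 7 families this was 0.107.

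**Figure D2:**
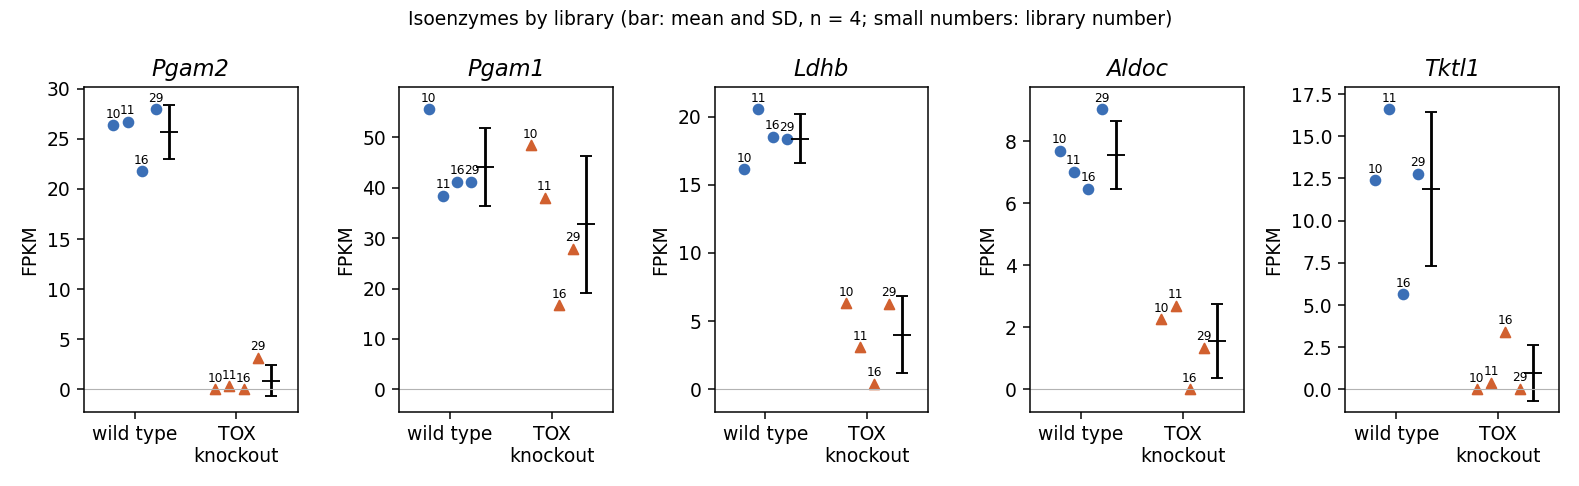
FPKM by library for Pgam2, Pgam1, Ldhb, Aldoc and the transketolase-like gene Tktl1, with circles for wild type, triangles for TOX knockout, library numbers at the points, and the mean with SD (n = 4) beside them. Pgam1 overlaps between genotypes, whereas the knockout points of the other 4 genes lie below all wild-type points.

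Lactate dehydrogenase is a tetramer of A subunits from Ldha, the form of glycolytic tissues, and B subunits from Ldhb, the form known from heart. Ldhb (chr6:142490249-142507943) was at 16.1, 20.5, 18.5 and 18.4 FPKM in wild type and at 6.31, 3.07, 0.433 and 6.26 in knockout. The wild-type libraries lay close together, and all knockout libraries were below them. The means were 18.4 ± 1.79 and 4.02 ± 2.83 FPKM (SD, n = 4 each), which gave a log2 fold change of -2.20 (SE 0.51; limma, adjusted p = 0.0472). This call was near the threshold, and it was lost with median-ratio scaling (-1.88, adjusted p = 0.0760), without wild-type library 10, 11, 16 or 29 (adjusted p = 0.139, 0.162, 0.114 and 0.153) and without knockout library 29 (0.0641). It was also lost with another pseudocount or filter or with the barcode run as a covariate (adjusted p from 0.0570 to 0.212), and within each run alone (0.652 and 0.229).

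Ldha (chr7:46845804-46855627), 1 of the most abundant members, was at 124, 130, 104 and 197 FPKM in wild type and at 86.0, 104, 32.9 and 54.3 in knockout. The groups did not overlap, though knockout library 11 came close to wild-type library 16. The difference on the log2 scale, -1.08 (SE 0.41; limma, adjusted p = 0.182), became -0.63 (adjusted p = 0.179) after median-ratio scaling. Ldhb held 11.5, 13.6, 15.1 and 8.54% of lactate dehydrogenase FPKM in wild type and 6.84, 2.88, 1.30 and 10.3% in knockout. Knockout library 29 exceeded wild-type library 29 in this share, and the exact permutation test gave p = 0.0571 (adjusted 0.107).

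**Figure D3:**
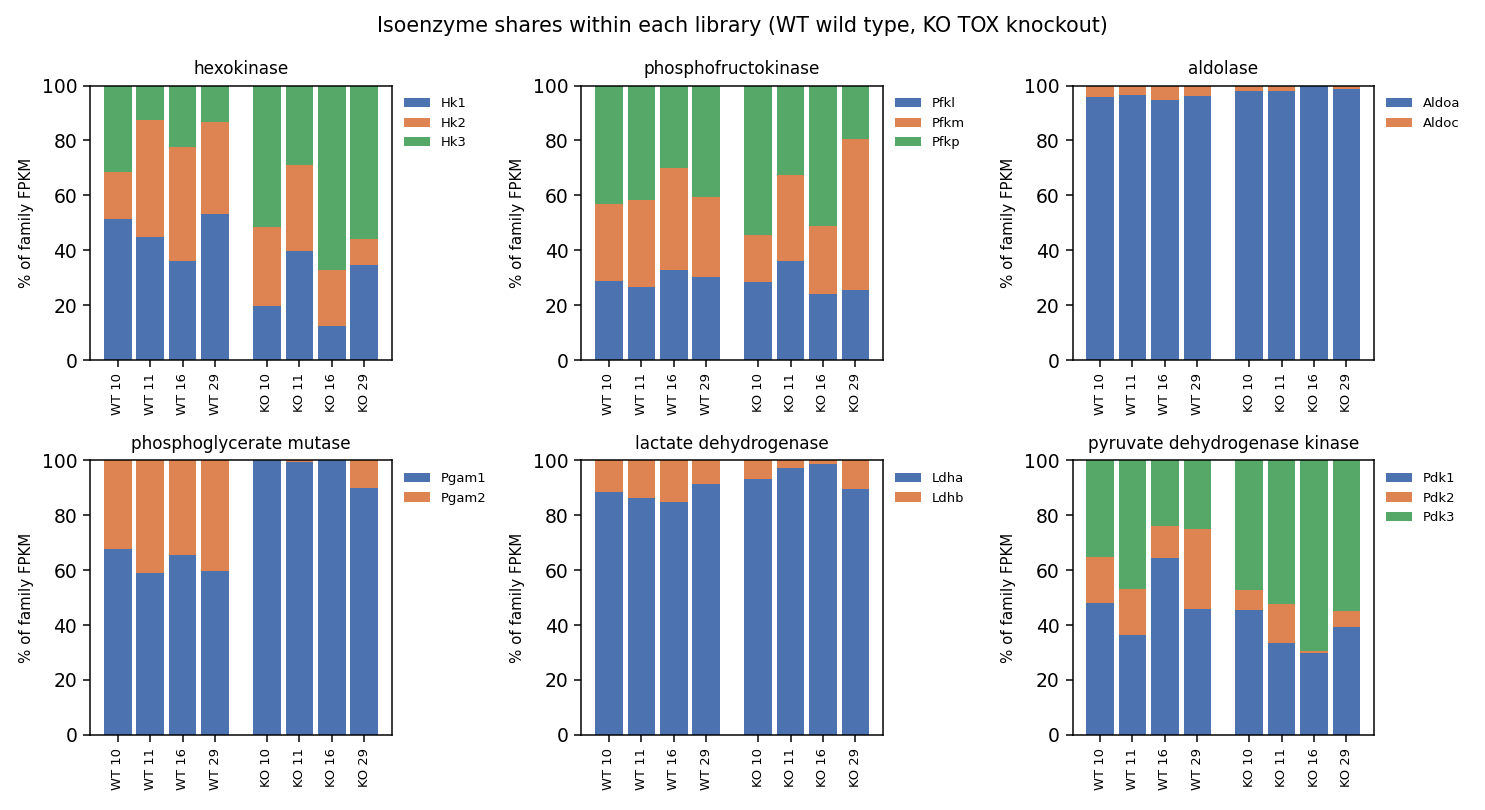
Percent of the summed FPKM of an enzyme family held by each isoenzyme in each library, for 6 families. The enolases are not drawn because reads at the Eno1 locus were assigned to another entry. Pgam2 is near 0 in 3 of 4 knockout libraries. The Hk3 shares overlap between genotypes in knockout library 11, and the Pdk3 shares do not overlap. No share passed after adjustment, which 4 libraries against 4 could hardly reach.

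Upper glycolysis begins with the hexokinases, which trap glucose as glucose-6-phosphate. None of the 10 tested genes between Hk1 and Tpi1 passed, and their median log2 fold change was -0.61, with 9 negative and 1 positive. The positive one was Hk3, the hexokinase known from myeloid cells. Hk3 was at 1.90 to 5.71 FPKM in wild type and 5.03 to 12.5 in knockout, a log2 difference of 0.99 (SE 0.44; limma, adjusted p = 0.228) that became 1.37 (adjusted p = 0.135) after median-ratio scaling. Hk1, the widely expressed form, was at 5.40 to 14.8 and 0.923 to 7.76 FPKM (-0.86, adjusted p = 0.339). Hk2, the insulin- and hypoxia-responsive form, was at 3.09 to 9.25 and 1.52 to 6.07 (-0.64, adjusted p = 0.413).

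As shares of hexokinase FPKM, Hk3 made up 31.6, 12.5, 22.4 and 13.3% in wild type and 51.4, 28.8, 67.3 and 55.9% in knockout. It was the largest hexokinase share in 3 of 4 knockout libraries and in 0 wild-type libraries, and only knockout library 11 fell inside the wild-type range. The mean difference was 30.9 percentage points, with an exact two-sided permutation p of 0.0571 (adjusted 0.107), and Hk1 moved by -19.8 points with the same p. In the same libraries the granulocyte markers were higher in knockout, again least in library 11, and their part in the hexokinase shares was not tested.

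Glucose-6-phosphate isomerase, Gpi1, was at 26.7 to 38.0 FPKM in wild type and 9.79 to 36.9 in knockout (log2 fold change -0.44, limma adjusted p = 0.512). The phosphofructokinases commit the sugar to glycolysis and are encoded by Pfkl, Pfkm and Pfkp, named after liver, muscle and platelets. Their means were 6.46, 6.71 and 8.32 FPKM in wild type and 4.13, 4.09 and 5.65 in knockout, with log2 fold changes of -0.59, -0.62 and -0.60. Their adjusted p lay between 0.364 and 0.422. The 3 shares of this family differed by at most 1.07 percentage points between genotypes (exact permutation p from 0.743 to 1.0), while single knockout libraries ranged from 16.97 to 54.9% for Pfkm.

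Aldolase cleaves fructose bisphosphate into trioses, with Aldoa as the form of muscle and most cells and Aldoc as the form known from brain. Aldoc (chr11:78324198-78326760) was at 7.70, 7.02, 6.47 and 9.03 FPKM in wild type and at 2.26, 2.70, 0 and 1.35 in knockout, with no overlap. The log2 fold change of -1.88 (SE 0.46) missed the threshold both as deposited (limma adjusted p = 0.0612) and with median-ratio scaling (-1.68, adjusted p = 0.0735). It passed without knockout library 11 (adjusted p = 0.0295) or 16 (0.0371).

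Aldoa was the most abundant member in wild type, at 185, 198, 115 and 220 FPKM, against 113, 133, 21.7 and 118 in knockout. Knockout libraries 11 and 29 lay above wild-type library 16, and the test gave a log2 fold change of -1.13 (SE 0.53, limma adjusted p = 0.247). Aldoc held 4.01, 3.42, 5.34 and 3.95% of aldolase FPKM in wild type and 1.97, 1.99, 0 and 1.13% in knockout (exact permutation p = 0.0286, adjusted 0.107). The table also lists Aldoart1 and Aldoart2, copies closely related to Aldoa that are known from testis, at 27.3 to 58.0 and 5.15 to 11.5 FPKM in wild type, and reads may have been split among them. With both counted as Aldoa the Aldoc share changed by -2.26 in place of -2.91 percentage points, and the p was the same. Tpi1, which interconverts the trioses, was at 34.4 to 59.8 and 30.0 to 53.4 FPKM, and its log2 fold change of -0.08 (adjusted p = 0.890) turned to 0.37 (adjusted p = 0.386) after median-ratio scaling.

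Lower glycolysis, from triose phosphate to pyruvate, had 7 tested members with a median log2 fold change of -0.73, of which Pgam2 alone passed. Gapdh, which makes the NADH of glycolysis and is widely used as a reference gene, was at 34.6, 40.5, 31.3 and 50.8 FPKM in wild type and at 35.4, 49.1, 6.39 and 22.8 in knockout (-0.74, SE 0.52, limma adjusted p = 0.394). Its spread came from knockout libraries 16 and 29, without which the sign turned (0.11). Pgk1, an ATP-forming kinase, was at 31.1 to 44.3 and 36.0 to 61.5 FPKM (0.26, adjusted p = 0.616). Pkm, pyruvate kinase of non-hepatic tissues, was at 50.4 to 108 and 33.4 to 65.3 (-0.73, adjusted p = 0.270). Its M1 and M2 splice forms are not separated in a table of genes.

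Bpgm makes 2,3-bisphosphoglycerate and is a known product of erythroid cells. It was at 25.7, 21.4, 84.3 and 16.6 FPKM in wild type and at 72.9, 25.9, 37.2 and 189 in knockout. The 4 highest values were in knockout libraries 29 and 10, wild-type library 16 and knockout library 16, which were also the 4 libraries with the largest globin share. Between genotypes the log2 difference was 1.00 (SE 0.62) with limma adjusted p = 0.347 and overlapping groups. The part of erythroid RNA in Bpgm was not tested.

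Enolase dehydrates 2-phosphoglycerate and has the forms Eno1, found in most cells, Eno2, known from neurons, and Eno3, known from muscle. The entry named Eno1 was at 0.294 to 2.93 FPKM in wild type and at most 0.279 in knockout, which cannot be read as the level of the gene. An entry named Gm5506, a predicted gene closely related to Eno1, spans the same locus (chr4:150237324-150248873) and was at 54.8, 33.0, 32.5 and 40.99 FPKM in wild type and at 35.3, 36.3, 11.1 and 23.3 in knockout. The 2 entries together gave 41.7 ± 11.5 and 26.6 ± 11.9 FPKM (SD, n = 4 each; exact permutation p = 0.171). A further Gm5506 entry on another chromosome had a mean of 45.1 FPKM over all libraries, 62.7 in wild type and 27.6 in knockout. Eno2 stayed below 1 FPKM in every library. Eno3 was at 3.80 to 9.17 and 0 to 6.30 FPKM, with a log2 fold change of -1.31 (limma adjusted p = 0.227).

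**Figure D4:**
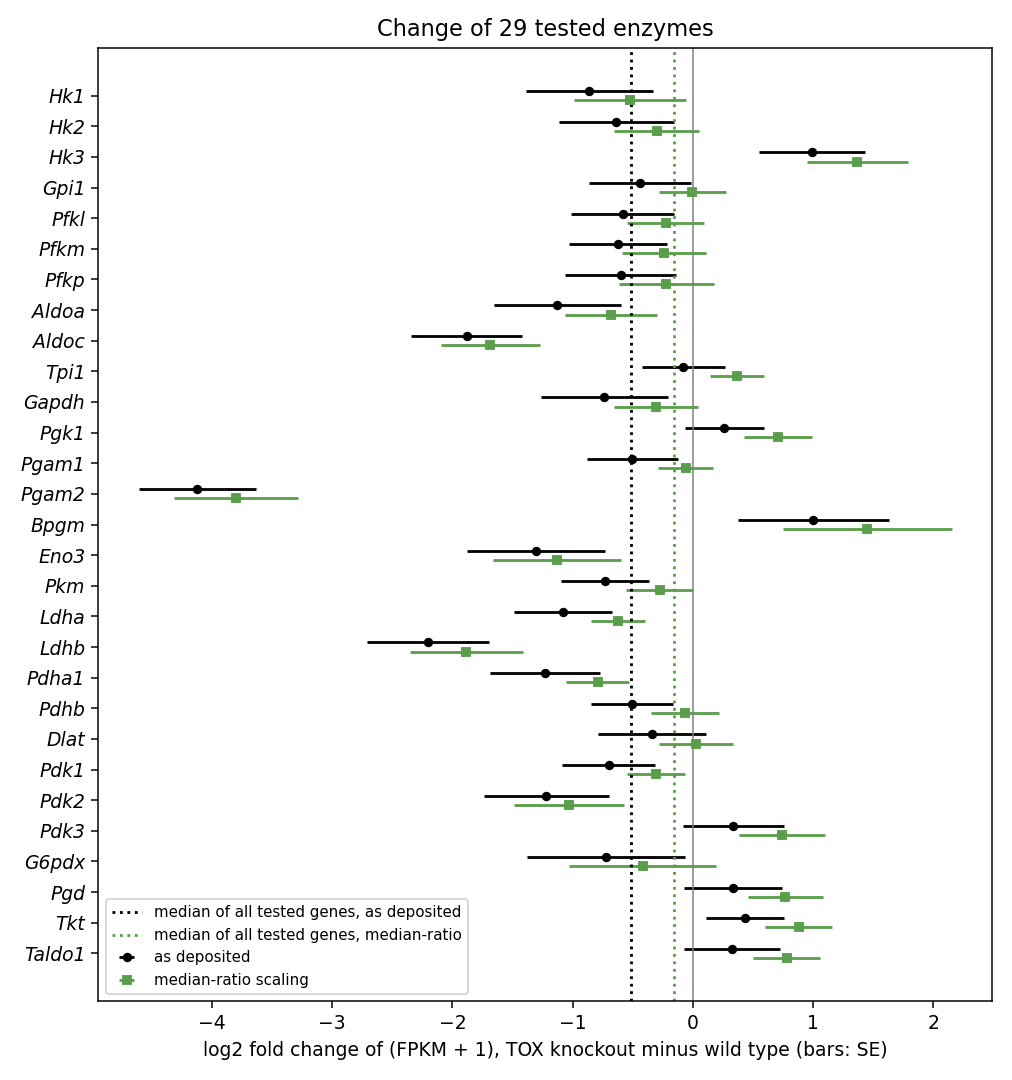
Log2 fold change of (FPKM + 1), TOX knockout minus wild type, for the 29 tested enzymes, with bars for the standard error. Circles are values as deposited, squares are values after median-ratio scaling, and dotted lines mark the median of all tested genes at -0.52 and -0.16. Pgam2 lies farthest from 0, and Pgd, Tkt and Taldo1 are above 0 under both scalings.

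The pyruvate dehydrogenase complex and the kinases that switch it off gave 0 calls among 6 tested genes, with a median log2 fold change of -0.60. Pdha1, the catalytic alpha subunit, was at 42.96, 55.4, 58.1 and 67.4 FPKM in wild type and at 39.3, 42.6, 9.82 and 16.5 in knockout. The groups did not overlap, but knockout library 11 reached to within a small distance of wild-type library 10, and the log2 fold change of -1.23 (SE 0.46) had limma adjusted p = 0.181. Pdhb, the beta subunit, was at 28.5 to 41.9 and 19.5 to 36.1 FPKM (-0.51, adjusted p = 0.377). Dlat, the acetyltransferase, was at 6.15 to 8.91 and 2.86 to 9.65 (-0.34, and 0.02 after median-ratio scaling).

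Among the kinases, Pdk1, a hypoxia-inducible form, was at 11.1, 10.4, 10.8 and 12.0 FPKM in wild type and at 9.56, 9.01, 3.57 and 5.25 in knockout. These groups did not overlap, and the log2 fold change of -0.70 (SE 0.39) had limma adjusted p = 0.307. Pdk2, a widely expressed form, was at 3.85, 4.76, 1.98 and 7.57 FPKM and at 1.56, 3.80, 0.0831 and 0.822 (-1.22, adjusted p = 0.219). Its groups overlapped. Pdk3 was at 8.20, 13.4, 4.00 and 6.52 FPKM and at 9.91, 14.0, 8.26 and 7.34 (0.34, adjusted p = 0.613), the only kinase with a positive value.

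The make-up of the kinase family was compared in the same way, as shares within each library. Pdk3 made up 35.4, 46.9, 23.8 and 25.0% of kinase FPKM in wild type and 47.1, 52.2, 69.3 and 54.7% in knockout, which did not overlap, although wild-type library 11 and knockout library 10 almost met. The mean share was 32.8 ± 10.8% and 55.8 ± 9.53% (exact two-sided permutation p = 0.0286, adjusted 0.107). The mean share of Pdk2 was 18.5 and 7.11% (exact p = 0.0571) and that of Pdk1 was 48.7 and 37.0% (exact p = 0.143). Of all 15 isoenzyme shares, 3 had an exact p under 0.05, those of Pgam2, Aldoc and Pdk3, and 0 passed after adjustment. With 4 libraries against 4 an adjusted p under 0.05 needs many of the 15 shares to reach the smallest possible p together. A share that fully separates the genotypes can therefore fail, and the adjusted values decide little here.

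The 4 pentose phosphate enzymes were the group of members with a positive median. Their median log2 fold change was 0.33 as deposited and 0.77 with median-ratio scaling, with 3 positive and 1 negative, and 0 passed. This did not extend to the rest of the pathway. In a separate list of other pentose phosphate enzymes, the 7 tested genes had a median of -0.57, and of -0.12 with median-ratio scaling. Tkt, transketolase of the non-oxidative arm, was at 26.2, 31.3, 24.0 and 36.8 FPKM in wild type and at 37.4, 44.9, 33.4 and 44.6 in knockout. Only the highest wild-type library, 29, exceeded the lowest knockout library. The log2 difference of 0.43 (SE 0.32; limma, adjusted p = 0.413) became 0.88 (adjusted p = 0.141) after median-ratio scaling, where the groups no longer overlapped.

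Pgd, 6-phosphogluconate dehydrogenase of the NADPH-forming arm, was at 22.0, 23.6, 24.4 and 24.3 FPKM in wild type and at 38.3, 32.5, 13.1 and 47.7 in knockout. Wild type was tight, and knockout library 16 alone lay below it. Its log2 difference of 0.33 (SE 0.41; limma, adjusted p = 0.608) became 0.77 (adjusted p = 0.212) after median-ratio scaling. Taldo1, transaldolase, was at 79.6 to 121 and 55.6 to 164 FPKM (0.33, adjusted p = 0.603). G6pdx, the entry enzyme of the pathway, was at 7.32 to 17.4 and 0.514 to 13.8 FPKM (-0.72, adjusted p = 0.491). Its locus overlaps that of Ikbkg, between which reads may have been divided.

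A ratio of sums within each library was formed after these values had been seen, and it is given as a description with no test. Summed FPKM of G6pdx, Pgd, Tkt and Taldo1 over summed FPKM of the 19 glycolytic members from Hk1 to Pkm was 0.294, 0.301, 0.273 and 0.254 in wild type. It was 0.481, 0.479, 0.469 and 0.490 in knockout. The 4 knockout libraries agreed closely with each other, library 16 among them, and all lay above wild type, with means of 0.480 ± 0.00851 and 0.280 ± 0.0212. Without Taldo1, which holds most of the pentose phosphate sum, the ratio was 0.0949 to 0.140 in wild type against 0.170 to 0.215 in knockout. Without Bpgm it was 0.260 to 0.326 and 0.507 to 0.751, and without Aldoa 0.350 to 0.487 and 0.521 to 0.670. With Aldoart1, Aldoart2 and the Gm5506 entry at the Eno1 locus added it was 0.228 to 0.265 and 0.428 to 0.458. The further Gm5506 entry on another chromosome was not added. Close agreement among the knockout libraries was thus lost without Bpgm (SD 0.107), Aldoa (SD 0.0625) or Taldo1 (SD 0.0184, mean 0.192). The genotypes stayed apart in each case. As shares of the summed FPKM of all 31 members, the pentose phosphate enzymes made up 14.3 to 17.1% in wild type against 24.5 to 28.8% in knockout.

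In the same measure, relative to the sum of the 31 members, Hk3, Pgd, Tkt and Taldo1 lay higher in all knockout than in all wild-type libraries. Aldoc, Pgam2, Eno1, Ldha, Ldhb and Pdk1 lay lower in all of them, the Eno1 entry being uncertain as said. Of all tested genes 3.51% lay higher and 6.13% lower by this measure. The granulocyte markers also lay higher in all 4 knockout libraries, with no overlap in their share of the library. Their part in the pentose phosphate values was not tested.

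**Figure D5:**
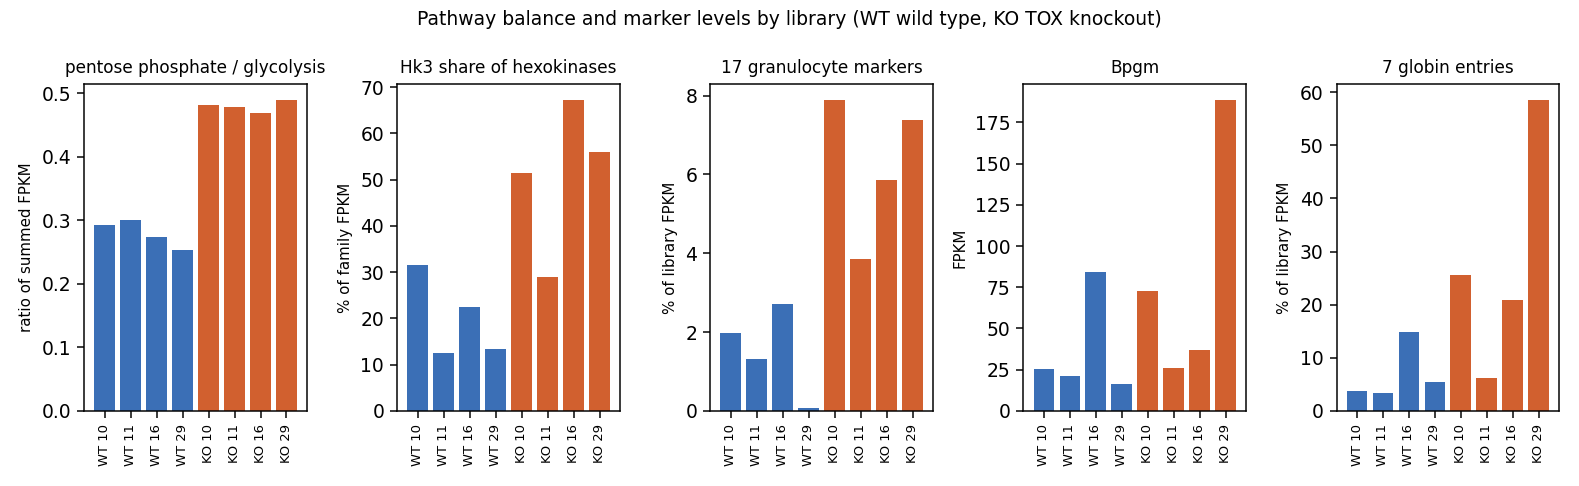
Bars from 0 for each library, wild type first, of the ratio of summed pentose phosphate to summed glycolytic FPKM, the Hk3 share of hexokinase FPKM, the percent of library FPKM held by 17 granulocyte markers, Bpgm in FPKM, and the percent of library FPKM held by 7 globin entries. The ratio and the granulocyte share separate the genotypes. Globin is above every wild-type library in all knockout libraries but library 11, and Bpgm overlaps between genotypes.

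The 31 members held 0.351, 0.302, 0.245 and 0.343% of the summed FPKM of their library in wild type. In knockout they held 0.196, 0.267, 0.192 and 0.146%, and 3 of these 4 libraries lay below all wild-type libraries. With globin left out of the library sum the values were 0.364, 0.313, 0.288 and 0.364% against 0.263, 0.284, 0.243 and 0.353%. The groups overlapped in 1 knockout library either way. It was library 11 with globin included and library 29, which holds the most globin, with globin left out.

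Other genes of glucose use were read from 8 lists chosen by function, holding 111 symbols of which 106 were in the table and 76 were tested. Of these 76, 1 passed as lower, Tktl1, and 1 as higher, Ndrg1. With median-ratio scaling 0 passed as lower and 2 as higher, Ndrg1 and Pygl. Over all tested genes 1.72% passed as lower and 0.196% as higher as deposited, and 1.33% and 0.651% with median-ratio scaling. The median log2 fold change of the lists as deposited lay between -1.11, for the other glycolytic isoenzymes with 2 tested, and -0.28, for the 14 tested regulators, around the all-gene median of -0.52.

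Tktl1, a transketolase-like protein among the other pentose phosphate enzymes, was at 12.4, 16.6, 5.65 and 12.8 FPKM in wild type and at 0, 0.385, 3.42 and 0.0477 in knockout. The lowest wild-type and the highest knockout value were both in libraries numbered 16. After median-ratio scaling the groups overlapped, with wild-type library 16 at 4.83 and knockout library 16 at 6.37. The log2 difference was -2.93 (SE 0.54; limma, adjusted p = 0.0142), and the call was lost with median-ratio scaling (-2.53, adjusted p = 0.0760) and without wild-type library 10, 11 or 29 or knockout library 29 (adjusted p from 0.0615 to 0.0673). It was also lost with a pseudocount of 0.1 (0.0612), with no filter (0.118) and in the first barcode run alone (0.652). Tkt, its paralogue, had a log2 fold change of 0.43, and the difference between the paralogues was not tested. None of the other 6 tested genes of that list passed.

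Ndrg1, a gene known to respond to hypoxia and to differentiation, was at 1.44, 2.35, 0.579 and 1.46 FPKM in wild type and at 11.9, 12.4, 12.998 and 10.1 in knockout. In knockout it was close to uniform, and every wild-type library lay far below. The ratio of the means was 8.13 and the log2 fold change 2.43 (SE 0.39; limma, adjusted p = 0.00623), or 2.76 after median-ratio scaling (adjusted p = 0.00488). It passed with each library left out, but in neither barcode run alone (0.626 and 0.199). Of the 12 tested genes of the hypoxia-responsive list no other passed, and the list had a median of -0.47. Hif1a, the oxygen-regulated subunit of the hypoxia factor, was at 22.4, 33.9, 25.7 and 28.0 FPKM and at 14.0, 19.9, 11.5 and 2.40. Those groups did not overlap as deposited, and the log2 fold change of -1.39 (SE 0.51) missed the threshold (adjusted p = 0.179). Trp53, which encodes p53, was at 55.5 to 109 and 6.82 to 67.5 FPKM (-1.48, adjusted p = 0.187).

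Pygl, the glycogen phosphorylase of liver that is also used by myeloid cells, was at 3.28, 4.63, 9.62 and 2.43 FPKM in wild type and at 19.7, 17.04, 12.8 and 40.4 in knockout, with no overlap. Its log2 fold change of 1.98 (SE 0.47) fell just short as deposited (limma adjusted p = 0.0536) and passed with median-ratio scaling (2.37, adjusted p = 0.0355). As deposited it passed without wild-type library 16 (0.0476) or knockout library 11 (0.0427) or 16 (0.0194). The granulocyte markers were higher in the same libraries, and their part was not tested. Pygl belongs to the 22 tested genes of branch pathways, of which Mdh1, cytosolic malate dehydrogenase, had the next smallest p (103.6 to 172 against 36.7 to 108 FPKM, -0.98, adjusted p = 0.205).

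In 4 further lists no gene passed under either scaling. Of 10 tested transporters, Slc16a6, a carrier of the monocarboxylate family, was at 4.27 to 10.0 FPKM in wild type and 0.0360 to 4.47 in knockout (log2 fold change -1.69, limma adjusted p = 0.133). Slc2a8, an intracellular glucose transporter, was at 1.33 to 1.97 and 0.0941 to 2.04 (-0.85, adjusted p = 0.270). Slc2a1 and Slc2a3, the main glucose carriers of blood cells, had log2 fold changes of -0.27 and -0.01 (adjusted p = 0.800 and 0.987). Among other isoenzymes Aldoart1 had -2.004 (adjusted p = 0.191) and Adpgk, an ADP-dependent glucokinase, -0.22 (0.751).

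Of the bifunctional enzymes that set fructose-2,6-bisphosphate, Pfkfb2 was at 2.59 to 6.01 FPKM in wild type and 0.359 to 3.54 in knockout (log2 fold change -0.91, limma adjusted p = 0.281), and Pfkfb3 at 1.26 to 5.74 and 0.137 to 3.68 (-0.63, adjusted p = 0.452). Pdp1, the phosphatase that reactivates pyruvate dehydrogenase, was at 3.21 to 4.79 and 0.589 to 3.03 FPKM (-0.98, adjusted p = 0.231). Its groups did not overlap as deposited but did after median-ratio scaling. Dld, the dehydrogenase subunit shared with other complexes, was at 30.8 to 41.9 and 6.42 to 45.0 (-0.95, adjusted p = 0.322). Knockout libraries 16 and 29 held the low values of Dld and Pfkfb2, as they did for many members.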

How the data were processed

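RNA sequencing libraries from 4 wild-type and 4 TOX knockout mouse samples were made with a low-input SMARTer kit and sequenced on an Ion Proton, per the labels' protocols. The authors deposited 1 FPKM value per gene and library, made with Cufflinks. The genome build was mm10, as the submitters' processing notes name it. No source used here gives the version, the aligner or the annotation. Values are scaled to mapped reads, so abundant transcripts lower the values of other genes, and reads of closely similar genes can be split among copies. Columns were assigned to genotypes by name. Column numbers are not the replicate numbers of the titles, and the barcodes in the column names form 2 runs, the first (17 to 20) with libraries 10 and 16 of both genotypes, the second (40 to 43) with 11 and 29.

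The deposited FPKM were used as log2(FPKM + 1). Genes with a mean of at least 1, 10693 entries, were tested with limma 3.58.1 in R 4.3.3, with moderated variances that follow the mean, and adjusted by Benjamini-Hochberg at 0.05. The test was checked on simulated data with large planted changes and independent noise. That check does not cover smaller changes or a shift of a whole library. For a repeated symbol the entry of highest mean was taken. Isoenzyme shares were compared by exact two-sided permutation tests in Python 3.11.15 with scipy 1.17.1. No 2 libraries held identical values (28 pairs). Alternatives covered the pseudocount, the filter, scaling, the replicate block, the barcode run and left-out libraries. Members, lists, markers and tests were chosen with earlier results of these data known. All members are accounted for. Values in every library are given for members called under either scaling or with groups that do not overlap, and for isoenzymes of families with a non-overlapping share. Bpgm, Gapdh and the hexokinase shares were added after their values were seen. Of each list, called genes are named, or the 2 with the smallest p where none was called. Slc2a1, Slc2a3, Dbnl and, as scaling called it, Pygl were named beside them after their values were seen. Promoter windows are RefSeq's, on GRCm38.p6.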

Additional observations from a re-analysis of the deposited data

Results flagged for a closer look

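Groups of 4 values were tested over members and isoenzyme shares by Dixon's criterion. In 11 of 92 groups the highest or lowest library stood apart from the other 3. Chance meets this criterion in about 1 in 20 independent, normally distributed groups. The groups here are not independent, since shares are built from the members' FPKM, so 11 of 92 cannot be read against that rate. In knockout library 29 Pgam2 was at 3.15 FPKM against 0 to 0.316 in the other knockout libraries, and its share of mutase FPKM was 10.2% against 0 to 0.824%. In wild type Pgam1 was at 55.5 FPKM in library 10 against 38.4 to 41.2, Pfkl at 3.62 in library 11 against 7.15 to 7.69, and Bpgm at 84.3 in library 16 against 16.6 to 25.7. In knockout library 11 Pdhb was at 36.1 FPKM against 19.5 to 22.1. The remaining flags concern enolases near the limit of the table. Eno1 was at 0.279 FPKM in knockout library 11, with a share of 7.98%, where the other knockout libraries were near 0, and Eno2 was at 0.943 FPKM in knockout library 10 against 0.00887 to 0.0858. In knockout library 16 Eno3 was listed at 0, so its enolase share was 0 against 87.0 to 93.9% and that of Eno2 was 99.99% against 0.254 to 13.01%.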

How the results depend on the processing

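Over all tested genes, 205 were called changed. The count was 106 with a pseudocount of 0.1, 74 with no filter, 116 under a minimum mean FPKM of 5, 5 in the first barcode run alone, 95 in the second, and 82 to 654 with single libraries left out (lowest without wild-type library 11, highest without knockout library 11). Of the members, 2 were called lower. This was 1 with a pseudocount of 0.1, no filter, a mean of at least 5, median-ratio scaling, the run as a covariate or the second run alone, 0 in the first run alone, and 1 to 3 with single libraries left out. In 0 of these settings was a member called higher. Whether samples with a shared column number were paired could not be settled. Deviations from the group means correlated at 0.04, 0.01, -0.02 and 0.26 for numbers 10, 16, 29 and 11. Libraries of different numbers gave -0.25 to 0.13. With the column number as a replicate block in limma 344 genes and 3 members were called, Aldoc being the third (adjusted p = 0.0444). The ratio of pentose phosphate to glycolytic FPKM differed by 0.199, by 0.0769 without Taldo1, by 0.294 without Bpgm, and by 0.191 to 0.206 with single libraries left out.

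The sign of some members turned, and the cause was not tested. With median-ratio scaling Tpi1 was at 0.37 and Dlat at 0.025. Without knockout libraries 16 and 29 the log2 fold change was 0.014 for Hk2, 0.23 for Tpi1, 0.11 for Gapdh, 0.35 for Dlat and 0.13 for G6pdx. In the first run alone it was -0.034 for Pgd and -0.036 for Taldo1, and in the second 0.025 for Gpi1, -0.068 for Pgk1 and 0.0050 for G6pdx. With single libraries left out Tpi1 ranged from -0.21 to 0.077 and G6pdx from -1.04 to 0.058. The differences in share, in percentage points, were 2.34 for Pfkl, -15.3 for Pfkp and 11.3 for Eno3 in the second run, -11.9 for Pfkm in the first, and 2.60, -7.21 and 9.39 for Pfkl, Pfkm and Eno3 without knockout libraries 16 and 29. With single libraries left out they ranged from -3.57 to 0.40 for Pfkl, -7.12 to 5.53 for Pfkm, -4.50 to 7.21 for Pfkp and -20.4 to 10.9 for Eno3. With the Gm5506 entry counted as Eno1 the Eno1 share differed by 6.22. Read depth is unknown, so counting error of low values could not be given.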
